A study of Homo sapiens with 24 samples.

Results

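The genes described here are 36 genes of the endoplasmic reticulum (ER) folding machinery, the unfolded protein response and the early secretory pathway, given as a list of gene symbols. All 36 were found among the 34834 genes that had a transcript in the deposited tables, and all 36 were among the 17453 genes that passed the filter on low counts. SK-MES-1, a human cell line from a squamous cell lung carcinoma, was first kept without serum for 3 h. Cells then received TGFβ1 at 2 ng/ml or nothing, and RNA-Seq libraries were made at 0, 8, 24 and 48 h. The study's methods give growth factor-depleted medium, with no serum listed, for the stimulation as well. Each of the 8 groups held 3 libraries, which the labels call biological triplicates of this single line. The arms compared are untreated cells and cells of the TGFβ arm at the same hour. The TGFβ arm at 0 h is the starting point of that arm.

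Proteins destined for the cell surface or the outside enter the ER through the SEC61 channel and lose their signal peptide. They are folded by chaperones, receive disulfide bonds and leave in COPII vesicles, while misfolded chains are returned to the cytosol and degraded. When folding lags, the membrane sensors IRE1 (gene ERN1), PERK (EIF2AK3) and ATF6 raise the expression of chaperones and degradation factors, and XBP1 mRNA is cut by IRE1 to encode an active transcription factor. TGFβ is known for raising the output of extracellular matrix proteins, whose folding and export use the same route.

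The libraries held between 46613589 and 77964234 estimated counts, and the 36 genes together made up between 0.546% and 0.756% of all TPM (kallisto's level per transcript length, set to a common total per library). At 0 h no gene of 17453 differed between the arms at an adjusted p of 0.01 in limma. Over all hours the summed TPM of the TGFβ response genes PMEPA1 and SMAD7 reached 570.3 in the TGFβ arm against 66.6 at most in untreated cells. TP63 was expressed in every group, while KRT17 and SOX2 varied with hour and arm. KRT17 had a mean of 0.433 TPM in untreated cells at 24 h and 70.5 TPM in the TGFβ arm at 48 h. SOX2 had 7.41 TPM in untreated cells at 24 h and 0.432 TPM in the TGFβ arm at 48 h. KRT5, KRT14, KRT6A and DSG3, which also define squamous cells, had mean levels below 0.1 TPM in every group. The summed fibroblast markers LUM, DCN and PDGFRA ranged from 6.86 to 46.3 TPM in untreated cells and from 8.18 to 23.8 TPM in the TGFβ arm, and their part in the results was not tested. A code in the deposited names separates 4 sets of libraries, which are each arm at 0 and 8 h and each arm at 24 and 48 h. A difference between the arms at 0, 8, 24 or 48 h therefore cannot be told apart from this code. A change within an arm from 0 to 8 h or from 24 to 48 h lies within a code. Replicate 2 of the TGFβ arm stood apart from its group at 0 and 24 h. Its chi-square per gene against the other replicates was 40.24 to 60.48 at 0 h and 35.64 to 47.04 at 24 h, compared with 3.17 to 22.65 for the pairs that did not include either library. Untreated replicate 2 was also the farthest of its group at these hours, at 14.68 to 22.65 against 9.13 for the other pair at 0 h and at 18.93 to 20.12 against 4.13 at 24 h. Leaving out that library at 24 h gave 28 members called at 24 h in place of 29, and leaving it out at 0 h gave 12 members in place of 9 for the change from 0 to 8 h. In bulk RNA, more expressing cells and more RNA per cell cannot be told apart.

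To ask how the secretory genes behaved after stimulation, the arms were compared at each hour with limma, with p-values adjusted over all 17453 genes, and a gene was called at an adjusted p below 0.01. Over 8, 24 and 48 h together 29 of the 36 genes were called, and all 29 had a higher average in the TGFβ arm, where 42.5% of all genes were called and 21% were called and higher. At 8 h 18 members were higher and none was called lower, at 24 h 29 were higher and none lower, and at 48 h 13 were higher and none lower. The shares of all genes called higher were 9.12% at 8 h, 15.4% at 24 h and 16.1% at 48 h, and those called lower were 7.26%, 13.8% and 16.4%. In either direction 16.4%, 29.3% and 32.6% of all genes were called. No member had a lower level at an unadjusted p under 0.05 at any of these 3 hours, and edgeR and DESeq2 called no member lower either. At 8, 24 and 48 h the 36 genes had median log2 differences of 0.23, 0.44 and 0.10, against -0.02, -0.01 and -0.01 for all genes tested. At 0 h 0 members were called, as were 0% of all genes, with 1 member at an unadjusted p under 0.05. edgeR and DESeq2 also called 0 members at 0 h, and among all genes edgeR called 0 and DESeq2 8.

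The count at 8 h was 32 when only the libraries of that comparison were fitted, where 5304 of all genes were called in place of 2859. The count at 48 h was 35 when library size was set by the 3 reference genes GUSB, HPRT1 and GAPDH, a scaling that moved the median of all genes to 0.355 at 48 h, called 10021 of them and was chosen after seeing the data.

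In TPM, every TGFβ library lay above every untreated library of the same hour for 26 members at 8 h, 29 at 24 h and 20 at 48 h, where this held for 16.2%, 17.2% and 24.4% of all genes. At 0 h 1 member was apart in this way and higher and 0 lower, against 1.69% and 5.3% of all genes. The reverse order was seen for 2 members at 8 h, 0 at 24 h and 4 at 48 h, against 31.2%, 23.2% and 30.7% of all genes. These members were ERO1A and ATF6 at 8 h and CANX, SDF2L1, ATF6 and SEC61B at 48 h. The signed log2 difference between the arms was largest at 24 h for 29 members, at 8 h for 4 and at 48 h for 3. The hour of the largest difference was not determined for all genes. Summed over the 36 genes, untreated cells had 5545 ± 136.4 TPM and the TGFβ arm 7133 ± 373.3 TPM at 24 h (SD, n = 3). At 48 h the sums were 5965 ± 45.6 and 6407 ± 121.3 TPM.

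**Figure D1:**
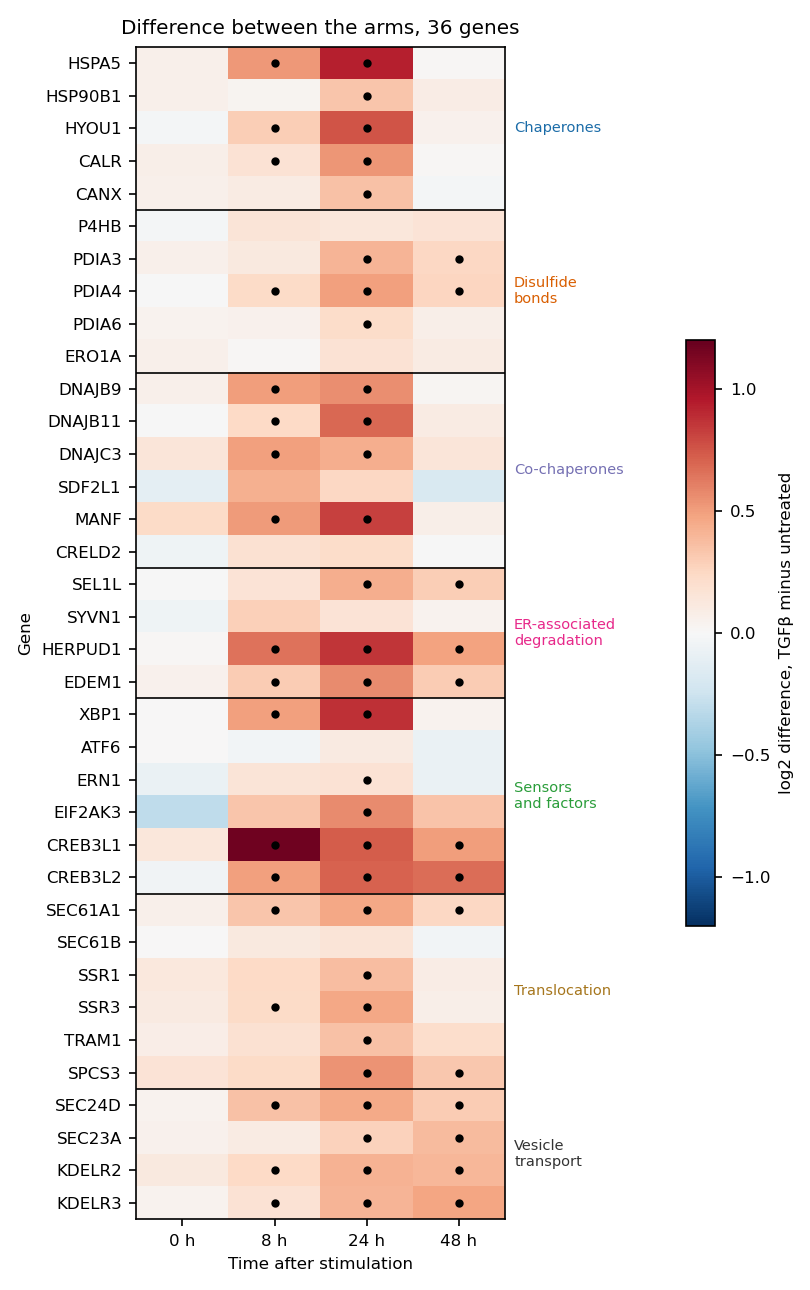
Log2 difference between the TGFβ arm and untreated cells (colour) for each of the 36 genes (rows, in role groups) at 0, 8, 24 and 48 h (columns), with a dot where the adjusted p was below 0.01. The columns for 8, 24 and 48 h hold 18, 29 and 13 dots and that for 0 h none, and the chaperones and co-chaperones carry none at 48 h.

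Among the chaperones, HSPA5 (BiP), the ATP-driven chaperone that also holds the ER stress sensors inactive, was 1.44-fold higher in the TGFβ arm at 8 h and 1.91-fold higher at 24 h. HSPA5 levels in untreated cells were 263, 293, 282 (0 h), 260.2, 253, 263 (8 h), 194, 212, 201 (24 h) and 295, 293, 299 (48 h) TPM. HSPA5 levels in the TGFβ arm were 266, 312, 283 (0 h), 378, 348, 349 (8 h), 349, 418, 370.2 (24 h) and 301, 289, 296 (48 h) TPM. The arms overlapped at 0 and 48 h and were apart at 8 and 24 h, and the untreated level at 24 h was the lowest of the course. HSPA5 (ENSG00000044574.9, chr9:125234853-125241382, minus strand, in GRCh38 by GENCODE release 44 as for all genes here) had log2 differences of 0.52 ± 0.05 at 8 h, 0.93 ± 0.05 at 24 h and 0.02 ± 0.05 at 48 h (SE), with adjusted p-values of 5.2e-08, 2.8e-12 and 0.81. Untreated cells had HYOU1 at 32.3, 30.4, 33.8 (0 h), 28.4, 27, 26.5 (8 h), 22.3, 20.4, 22.4 (24 h) and 30.5, 31.3, 30.6 (48 h) TPM. HYOU1 in the TGFβ arm was at 29.5, 31, 32.1 (0 h), 32.7, 31.7, 30.9 (8 h), 36.2, 34.8, 36 (24 h) and 31.2, 31.7, 30.8 (48 h) TPM. HYOU1 (ENSG00000149428.21, chr11:119044188-119057227, minus strand), a nucleotide exchange factor for BiP, showed the same order, with no overlap at 8 and 24 h, and log2 differences of 0.29 ± 0.04 at 8 h, 0.76 ± 0.04 at 24 h and 0.05 ± 0.04 at 48 h. The adjusted p of HYOU1 was 8.1e-12 at 24 h and 0.37 at 48 h.

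For CALR, untreated libraries gave 748, 743, 745 (0 h), 621, 619, 626 (8 h), 559, 543, 564 (24 h) and 759, 758, 753 (48 h) TPM. For CALR, TGFβ libraries gave 776, 757, 766 (0 h), 687, 668, 676 (8 h), 794, 782, 769 (24 h) and 753, 757, 747 (48 h) TPM. CALR (ENSG00000179218.15, chr19:12938578-12944489, plus strand), calreticulin, a lectin chaperone of glycoproteins, was lower at 8 h than at 0 h in both arms and higher in the TGFβ arm at 8 and 24 h, while at 48 h the arms overlapped. Its log2 difference was 0.53 ± 0.03 at 24 h (adjusted p = 5.2e-11) and 0.01 ± 0.03 at 48 h (adjusted p = 0.78). CANX, the membrane-bound relative of calreticulin, was called at 24 h and not at 8 or 48 h, with a log2 difference of 0.35 ± 0.07 at 24 h. At 48 h the fit of counts gave CANX -0.02 ± 0.07, while in TPM every TGFβ library lay below every untreated one, with a ratio of means of 0.91. HSP90B1, the HSP90 of the ER, was likewise called at 24 h, with 0.34 ± 0.07. Of the 5 chaperones, 3 were called higher at 8 h, 5 at 24 h and 0 at 48 h. The shares of all genes called higher were 9.12%, 15.4% and 16.1%.

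The promoters of these chaperones carry known elements of the unfolded protein response, and those of HSPA5 and HYOU1 are shown because these genes had the largest chaperone differences. Below are 150 bases of each RefSeq promoter on the gene's strand (GRCh38.p14), for HSPA5 from 190 to 41 bases before the start site (chr9:125241384-125241533, minus strand) and for HYOU1 from 200 to 51 bases before it (chr11:119057256-119057405, minus strand). Capitals mark matches to the elements described with the promoter results further on.
HSPA5: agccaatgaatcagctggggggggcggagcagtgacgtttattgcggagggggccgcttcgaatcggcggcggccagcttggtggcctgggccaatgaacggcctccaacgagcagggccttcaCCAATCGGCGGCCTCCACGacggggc
HYOU1: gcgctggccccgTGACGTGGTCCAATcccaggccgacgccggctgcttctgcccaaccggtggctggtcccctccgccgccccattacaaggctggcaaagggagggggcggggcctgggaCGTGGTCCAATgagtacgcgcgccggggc

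Among the genes for disulfide bond formation, 1 of 5 was called higher at 8 h, 3 at 24 h and 2 at 48 h. The shares of all genes called higher were 9.12%, 15.4% and 16.1%, and those called in either direction 16.4%, 29.3% and 32.6%. PDIA4 levels in untreated cells were 284, 277, 286 (0 h), 242, 243, 244 (8 h), 209, 194, 211 (24 h) and 212, 218, 212 (48 h) TPM. PDIA4 levels in the TGFβ arm were 278, 269.6, 288 (0 h), 282, 274, 269.6 (8 h), 292, 269, 283 (24 h) and 256, 248, 251 (48 h) TPM. PDIA4 (ENSG00000155660.11, chr7:149003062-149028662, minus strand), a protein disulfide isomerase, did not overlap between the arms at 8, 24 or 48 h, and its untreated level decreased from 0 to 24 h while the TGFβ arm overlapped its 0 h range at 8 and 24 h. PDIA4 had log2 differences of 0.23 ± 0.05 at 8 h, 0.49 ± 0.05 at 24 h and 0.26 ± 0.05 at 48 h, with an adjusted p of 0.0001 at 48 h. Untreated cells had PDIA3 at 483, 509.5, 483 (0 h), 464, 484, 502 (8 h), 487, 502, 492 (24 h) and 548, 567, 566 (48 h) TPM. PDIA3 in the TGFβ arm was at 474, 510.4, 468 (0 h), 513, 507, 537 (8 h), 652, 645, 528 (24 h) and 609.5, 621, 675 (48 h) TPM. PDIA3 (ENSG00000167004.14, chr15:43746394-43773279, plus strand), the isomerase that works with calnexin and calreticulin, was called at 24 h (0.41 ± 0.06, adjusted p = 8.9e-06) and 48 h (0.25 ± 0.06, adjusted p = 0.0015). Most PDIA3 TPM went to transcript PDIA3-202, which GENCODE types as nonsense-mediated decay and not as protein coding. In untreated cells at 0 h it held a mean of 327 of 492 TPM.

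For P4HB, untreated libraries gave 1125, 1222, 1113 (0 h), 1051, 1106, 1133 (8 h), 1021, 1079, 997 (24 h) and 869, 865, 886 (48 h) TPM. For P4HB, TGFβ libraries gave 1103, 1299.7, 1145 (0 h), 1158, 1143, 1152 (8 h), 1139, 1312, 1187 (24 h) and 933, 929, 1009 (48 h) TPM. P4HB (ENSG00000185624.16, chr17:81843159-81860856, minus strand), a disulfide isomerase that is also the beta subunit of collagen prolyl 4-hydroxylase, had the highest TPM of the 36 genes and was not called at any hour, with log2 differences of 0.15 ± 0.07 at 8 h, 0.14 ± 0.07 at 24 h and 0.16 ± 0.07 at 48 h. Its untreated libraries at 48 h were the lowest of the course. PDIA6 was called at 24 h (0.22 ± 0.04), and ERO1A, the oxidase that recharges the isomerases, was not called at any hour, with differences between 0.02 and 0.18 log2 units.

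Of the 6 co-chaperones and folding cofactors, 4 were called higher at 8 h and at 24 h and 0 at 48 h. The shares of all genes called higher were 9.12%, 15.4% and 16.1%. Untreated cells had MANF at 44.9, 46.9, 46.1 (0 h), 43.7, 49.3, 48 (8 h), 32.3, 29.3, 35.4 (24 h) and 48.7, 49.5, 59 (48 h) TPM. MANF in the TGFβ arm was at 54.8, 59.1, 45.5 (0 h), 61.5, 56.2, 69.5 (8 h), 49.3, 65.8, 58.2 (24 h) and 47.4, 59.8, 55.9 (48 h) TPM. MANF (ENSG00000145050.19, chr3:51385291-51389397, plus strand), a secreted ER protein that binds BiP, had a wide spread between replicates, with 268 to 1080 estimated counts a library, and the arms did not overlap at 8 and 24 h. Its log2 differences were 0.51 ± 0.12 at 8 h, 0.82 ± 0.13 at 24 h and 0.07 ± 0.12 at 48 h, with adjusted p-values of 0.0026, 3.4e-05 and 0.68. Most MANF TPM went to transcript MANF-203, which GENCODE types as retained intron and not as protein coding. In untreated cells at 0 h it held a mean of 42.8 of 46 TPM. For DNAJB9, untreated libraries gave 16.1, 20.1, 19.2 (0 h), 11.8, 12, 12.8 (8 h), 9.8, 12.2, 10.5 (24 h) and 15.4, 16.4, 15.9 (48 h) TPM. For DNAJB9, TGFβ libraries gave 15.3, 20.7, 20.2 (0 h), 17.2, 16.3, 16.6 (8 h), 14.5, 18.3, 15.1 (24 h) and 15.7, 16.1, 16.5 (48 h) TPM. DNAJB9 (ENSG00000128590.5, chr7:108569867-108574850, plus strand), a J-protein that directs BiP to misfolded chains and to IRE1, was lower at 8 and 24 h than at 0 h in untreated cells, and the TGFβ arm lay above it at both hours. DNAJB9 had log2 differences of 0.50 ± 0.09 at 8 h, 0.56 ± 0.09 at 24 h and 0.03 ± 0.09 at 48 h.

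DNAJC3 levels in untreated cells were 14.6, 16.9, 15 (0 h), 15.4, 14.1, 14.8 (8 h), 14.8, 17.3, 14.7 (24 h) and 18.3, 19, 18.9 (48 h) TPM. DNAJC3 levels in the TGFβ arm were 14.3, 19.7, 16.4 (0 h), 19.6, 19, 19.99 (8 h), 19.2, 22.8, 19.8 (24 h) and 20.8, 19.9, 21.2 (48 h) TPM. DNAJC3 (ENSG00000102580.15, chr13:95677139-95794988, plus strand), a J-protein known as an inhibitor of PERK, had log2 differences of 0.49 ± 0.07 at 8 h, 0.44 ± 0.07 at 24 h and 0.15 ± 0.07 at 48 h, and every TGFβ library lay above every untreated one at 8, 24 and 48 h. The difference of DNAJC3 at 48 h did not pass the threshold (adjusted p = 0.12). DNAJB11, a J-protein that delivers nascent chains to BiP, was 1.61-fold higher at 24 h (log2 difference 0.69 ± 0.04, adjusted p = 1.5e-11). SDF2L1 and CRELD2 were not called at any hour. SDF2L1 had a log2 difference of 0.43 ± 0.15 at 8 h (adjusted p = 0.042), and its lowest values within the TGFβ arm at 0 and 24 h, 27 and 24.9 TPM, were those of replicate 2, the library that stood apart.

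Of the 4 genes of ER-associated degradation, 2 were called higher at 8 h, 3 at 24 h and 3 at 48 h. The shares of all genes called higher were 9.12%, 15.4% and 16.1%. HERPUD1 levels in untreated cells were 112, 110.3, 138 (0 h), 95.6, 97, 96.7 (8 h), 86.6, 92.4, 88.5 (24 h) and 95.5, 88.9, 91.3 (48 h) TPM. HERPUD1 levels in the TGFβ arm were 102, 115, 129.6 (0 h), 157, 153, 136 (8 h), 152, 165, 160.3 (24 h) and 124, 134, 125 (48 h) TPM. HERPUD1 (ENSG00000051108.15, chr16:56932142-56944864, plus strand), a membrane protein of the degradation complex, was 1.57-fold higher at 8 h, 1.81-fold at 24 h and 1.39-fold at 48 h, with no overlap between the arms at these hours. Its log2 differences were 0.65 ± 0.05 at 8 h, 0.86 ± 0.05 at 24 h and 0.48 ± 0.05 at 48 h, with adjusted p-values of 4.8e-09, 2.8e-11 and 2.8e-07. Untreated cells had EDEM1 at 26.3, 28.6, 27.7 (0 h), 28.2, 27.7, 27 (8 h), 27.5, 29.1, 26.5 (24 h) and 30.4, 29.2, 29.4 (48 h) TPM. EDEM1 in the TGFβ arm was at 23.5, 33.1, 29.4 (0 h), 32.7, 34.6, 33.2 (8 h), 37.2, 42.8, 38.6 (24 h) and 36.8, 36.1, 37.6 (48 h) TPM. EDEM1 (ENSG00000134109.11, chr3:5187646-5219958, plus strand), which marks glycoproteins for degradation, differed little over time in untreated cells, and all TGFβ libraries at 8, 24 and 48 h lay above all untreated ones of the same hour. EDEM1 had log2 differences of 0.31 ± 0.05 at 8 h, 0.57 ± 0.05 at 24 h and 0.31 ± 0.05 at 48 h.

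For SEL1L, untreated libraries gave 55.7, 60.5, 58.4 (0 h), 56.6, 60.1, 59.8 (8 h), 63.4, 55, 61.3 (24 h) and 65.6, 66.3, 65.6 (48 h) TPM. For SEL1L, TGFβ libraries gave 41.3, 58.5, 55.4 (0 h), 64, 61.5, 67.3 (8 h), 80.01, 83.1, 78.7 (24 h) and 72.6, 78.8, 79.3 (48 h) TPM. SEL1L (ENSG00000071537.14, chr14:81471547-81533853, minus strand), the adaptor of the ubiquitin ligase SYVN1, was called at 24 h (0.43 ± 0.08, adjusted p = 0.00017) and 48 h (0.30 ± 0.08, adjusted p = 0.0047). SYVN1 itself was not called at any hour, with a log2 difference of 0.28 ± 0.08 at 8 h (adjusted p = 0.015).

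Of the 6 sensors and transcription factors, 3 were called higher at 8 h, 5 at 24 h and 2 at 48 h. The shares of all genes called higher were 9.12%, 15.4% and 16.1%. CREB3L1 levels in untreated cells were 42.2, 37, 37.4 (0 h), 30.8, 34.1, 32.1 (8 h), 41, 40.9, 42 (24 h) and 44.5, 41.4, 41.4 (48 h) TPM. CREB3L1 levels in the TGFβ arm were 42.9, 39.1, 43.6 (0 h), 72.7, 68.8, 63.7 (8 h), 72.7, 61.9, 65.7 (24 h) and 61.8, 59.6, 54.5 (48 h) TPM. CREB3L1 (ENSG00000157613.11, chr11:46277662-46321409, plus strand), also named OASIS, a membrane-bound factor known for driving collagen and secretory genes, had the largest difference of the 36 genes at 8 h, 2.25-fold. The untreated values at 8 h were all below those at 0 h, and no TGFβ library from 8 h on reached down to the untreated range. CREB3L1 had log2 differences of 1.17 ± 0.08 at 8 h, 0.73 ± 0.08 at 24 h and 0.50 ± 0.09 at 48 h, with adjusted p-values of 7.3e-10, 4.8e-07 and 5.9e-05. Untreated cells had CREB3L2 at 14.7, 15.2, 15.8 (0 h), 13.5, 12.8, 12.7 (8 h), 11, 11.9, 11.2 (24 h) and 12.4, 13, 12.4 (48 h) TPM. CREB3L2 in the TGFβ arm was at 11.9, 15.7, 16 (0 h), 17.6, 17.8, 17 (8 h), 17.2, 19.7, 17.8 (24 h) and 19.8, 20.6, 19 (48 h) TPM. CREB3L2 (ENSG00000182158.16, chr7:137874979-138002086, minus strand), its close relative, known for raising SEC23A in cartilage, had log2 differences of 0.50 ± 0.07 at 8 h, 0.71 ± 0.07 at 24 h and 0.67 ± 0.07 at 48 h, the largest of the 36 genes at 48 h.

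For XBP1, untreated libraries gave 54.1, 51, 60.1 (0 h), 43.8, 50.2, 50.01 (8 h), 45.3, 44.5, 44.1 (24 h) and 77.5, 75, 75.3 (48 h) TPM. For XBP1, TGFβ libraries gave 45.3, 55.5, 61 (0 h), 72.6, 60.05, 65.6 (8 h), 74.6, 87.7, 78.3 (24 h) and 79.7, 72.3, 76.5 (48 h) TPM. XBP1 (ENSG00000100219.17, chr22:28794555-28800597, minus strand) was 1.41-fold higher at 8 h and 1.83-fold higher at 24 h, and at 48 h the arms overlapped. XBP1 had log2 differences of 0.49 ± 0.07 at 8 h, 0.88 ± 0.07 at 24 h and 0.04 ± 0.07 at 48 h, with an adjusted p of 1.6e-09 at 24 h and 0.7 at 48 h. Of the sensors, ERN1 was called at 24 h (0.17 ± 0.05, adjusted p = 0.0099) and so was EIF2AK3 (0.56 ± 0.16, adjusted p = 0.0092). ATF6 was not called at any hour, with differences between -0.08 and 0.11 log2 units.

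XBP1 also has a readout at the level of its transcripts, since IRE1 removes 26 bases from the mRNA. Of the annotated transcripts in the tables, XBP1-201 keeps these bases and XBP1-202 lacks them. The stretches around the site (GENCODE release 44 transcripts) are shown with 26 bases in capitals. The same product results from 7 placements of the 26 bases, because the flanking letters repeat. The capitals mark the most upstream of these placements, and which of them IRE1 cuts was not determined.
XBP1 unspliced: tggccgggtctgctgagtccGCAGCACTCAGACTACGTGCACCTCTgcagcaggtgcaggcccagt
XBP1 spliced: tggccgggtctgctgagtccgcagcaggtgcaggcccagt

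In the untreated libraries the spliced transcript made up 11.8%, 0% and 5.7% (0 h), 2.14%, 7.7% and 12.4% (8 h), 10.1%, 0.0228% and 7.41% (24 h) and 7.37%, 7.23% and 9.15% (48 h) of XBP1 TPM. In the TGFβ arm the spliced share was 0.107%, 0% and 8.53% (0 h), 12.1%, 5.22% and 12.9% (8 h), 6.07%, 0% and 4.6% (24 h) and 11.1%, 2.58% and 0.932% (48 h). The arms overlapped at all 4 hours, and replicate 2 was at 0 or close to it in both arms at 0 and 24 h. The mean difference over 8, 24 and 48 h was -0.889 percentage points, and an exact two-sided permutation test of the library labels within hours gave p = 0.657 over 8000 relabellings. The spliced transcript held between 0 and 408.4 estimated counts a library, which kallisto assigns among transcripts that share most of their sequence, and a modest difference in splicing was not detectable at this spread.

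**Figure D2:**
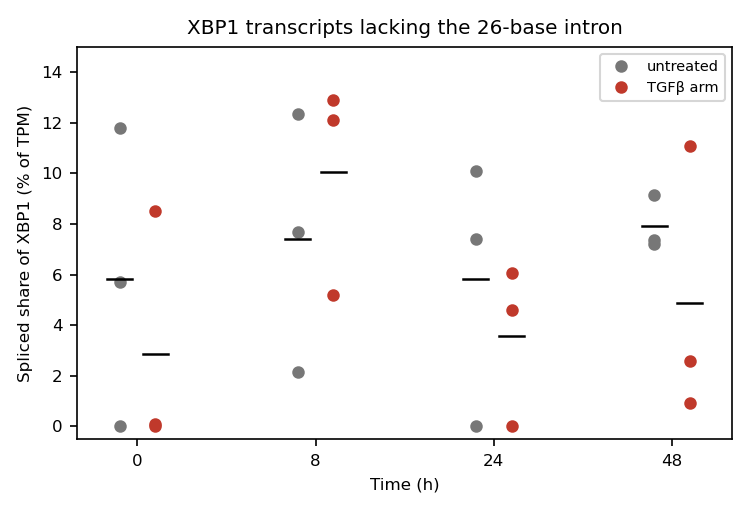
Share of XBP1 TPM given to the transcript lacking the 26-base intron (y axis, percent) in each library (points) by hour (x axis) and arm, with black bars for the mean of 3 libraries. The points of both arms overlap at every hour and range from 0 to 12.9%.

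Of the 6 translocation genes, 2 were called higher at 8 h, 5 at 24 h and 2 at 48 h. The shares of all genes called higher were 9.12%, 15.4% and 16.1%. SEC61A1 levels in untreated cells were 221, 214, 225 (0 h), 222, 223, 224 (8 h), 186, 182, 189.9 (24 h) and 204, 199.9, 199 (48 h) TPM. SEC61A1 levels in the TGFβ arm were 216, 221, 234 (0 h), 279, 267, 265 (8 h), 255, 247, 249 (24 h) and 236, 234, 234 (48 h) TPM. SEC61A1 (ENSG00000058262.11, chr3:128051641-128071705, plus strand), the channel-forming subunit, varied little between replicates, and the TGFβ libraries were above the untreated ones at 8, 24 and 48 h. SEC61A1 had log2 differences of 0.33 ± 0.03 at 8 h, 0.46 ± 0.03 at 24 h and 0.25 ± 0.03 at 48 h, with adjusted p-values of 1.3e-07, 4.6e-10 and 5.2e-06. Untreated cells had SPCS3 at 58, 54.1, 53.7 (0 h), 53, 48.7, 48.7 (8 h), 38.1, 43.5, 43.5 (24 h) and 43.8, 42.5, 41.7 (48 h) TPM. SPCS3 in the TGFβ arm was at 52.9, 60.01, 54.2 (0 h), 58, 54.9, 56.4 (8 h), 52.8, 62.5, 50.1 (24 h) and 47.5, 48.7, 52.5 (48 h) TPM. SPCS3 (ENSG00000129128.13, chr4:176319966-176332245, plus strand), a subunit of the signal peptidase, had log2 differences of 0.23 ± 0.09 at 8 h, 0.54 ± 0.09 at 24 h and 0.32 ± 0.09 at 48 h, and its arms did not overlap at 8, 24 or 48 h.

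For SSR3, untreated libraries gave 215, 228, 223 (0 h), 162, 174, 173 (8 h), 142, 151, 151 (24 h) and 158, 158, 156 (48 h) TPM. For SSR3, TGFβ libraries gave 204, 242, 229.8 (0 h), 186, 185, 186 (8 h), 174, 204, 182 (24 h) and 168, 164, 172 (48 h) TPM. SSR3 (ENSG00000114850.7, chr3:156539553-156555149, minus strand), a subunit of the translocon-associated complex, had lower means at 8, 24 and 48 h than at 0 h in both arms, and the TGFβ arm was above the untreated one at each of these hours. Its log2 differences were 0.23 ± 0.06 at 8 h, 0.47 ± 0.06 at 24 h and 0.07 ± 0.06 at 48 h. SSR1, of the same complex, and TRAM1, another translocon protein, were called at 24 h, with 0.37 ± 0.07 and 0.35 ± 0.08. SEC61B, a small channel subunit, was not called at any hour and had 0.15 ± 0.05 at 24 h (adjusted p = 0.015).

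Of the 4 vesicle transport genes, 3 were called higher at 8 h, 4 at 24 h and 4 at 48 h. The shares of all genes called higher were 9.12%, 15.4% and 16.1%. KDELR3 levels in untreated cells were 26.4, 27.5, 27 (0 h), 33.7, 34.1, 36 (8 h), 38.2, 43, 38.3 (24 h) and 46.3, 44.6, 43.2 (48 h) TPM. KDELR3 levels in the TGFβ arm were 25.6, 29.8, 26.7 (0 h), 38.5, 37.3, 38.8 (8 h), 48.6, 55.7, 52 (24 h) and 60.5, 59.1, 58.6 (48 h) TPM. KDELR3 (ENSG00000100196.11, chr22:38468078-38483447, plus strand), a receptor that returns escaped ER proteins from the Golgi, had a higher mean at each later hour in both arms, and its log2 differences were 0.17 ± 0.04 at 8 h, 0.41 ± 0.04 at 24 h and 0.47 ± 0.04 at 48 h. The adjusted p of KDELR3 at 48 h was 1.3e-08. Untreated cells had KDELR2 at 233, 272, 234 (0 h), 226, 239.9, 233 (8 h), 210.3, 232, 219 (24 h) and 218, 216, 224 (48 h) TPM. KDELR2 in the TGFβ arm was at 240.4, 291, 261 (0 h), 273, 257, 254 (8 h), 259, 299, 264 (24 h) and 275, 266, 284 (48 h) TPM. KDELR2 (ENSG00000136240.10, chr7:6445953-6484190, minus strand), a second receptor of this family, had log2 differences of 0.24 ± 0.04 at 8 h, 0.41 ± 0.04 at 24 h and 0.40 ± 0.04 at 48 h, and the arms did not overlap at 8, 24 or 48 h.

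For SEC24D, untreated libraries gave 29.2, 33.7, 34.1 (0 h), 32.2, 33.1, 31.3 (8 h), 30.01, 33.3, 30.5 (24 h) and 34.5, 34.1, 34 (48 h) TPM. For SEC24D, TGFβ libraries gave 28.2, 37.3, 34.8 (0 h), 40.7, 39, 37.3 (8 h), 41, 45.4, 43.1 (24 h) and 40.5, 39.9, 42.2 (48 h) TPM. SEC24D (ENSG00000150961.15, chr4:118722823-118838683, minus strand), a cargo-binding subunit of the COPII coat, changed little over time in untreated cells, and the TGFβ libraries from 8 h on were above all untreated libraries of any hour. SEC24D had log2 differences of 0.36 ± 0.05 at 8 h, 0.46 ± 0.05 at 24 h and 0.30 ± 0.05 at 48 h, with adjusted p-values of 1.1e-05, 2.2e-07 and 4.4e-05. SEC23A, which pairs with SEC24 in the inner coat, had 0.10 ± 0.05 at 8 h (adjusted p = 0.19), 0.28 ± 0.05 at 24 h and 0.38 ± 0.05 at 48 h (adjusted p = 4.9e-06).

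**Figure D3:**
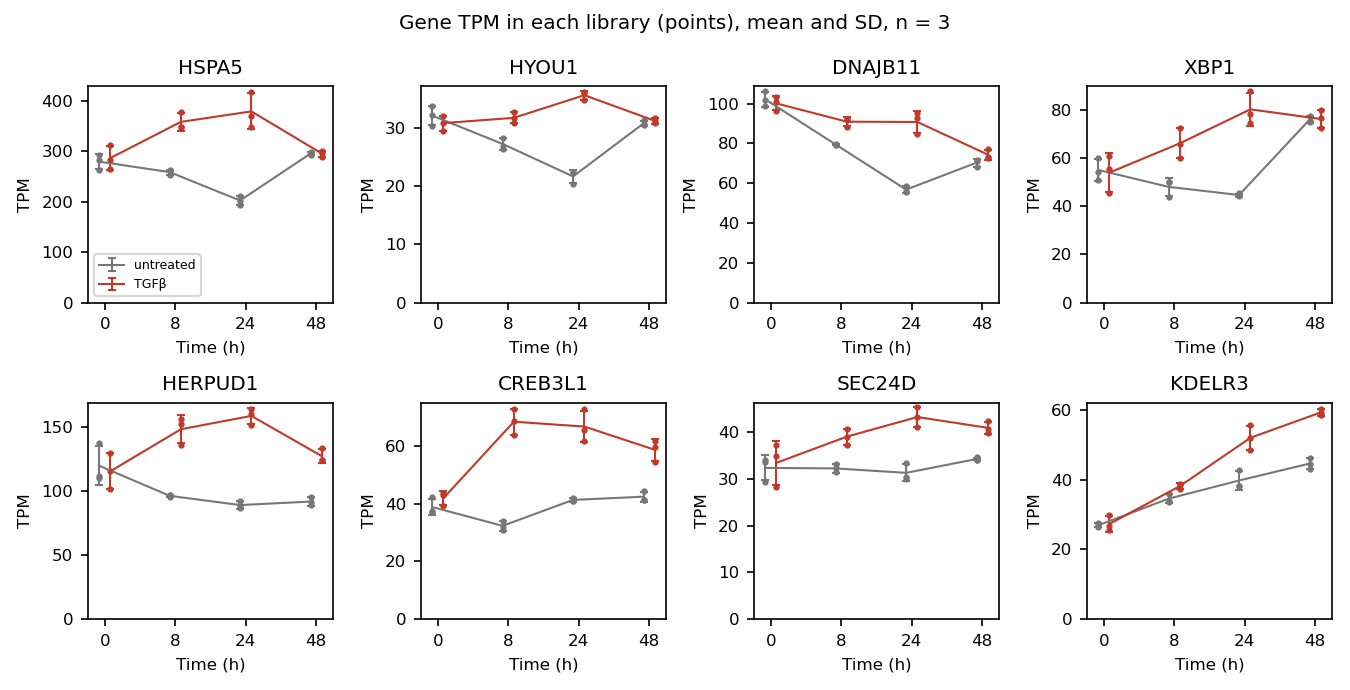
TPM (y axis, from 0) of 8 genes by hour (x axis) in untreated cells (grey) and the TGFβ arm (red), with points for libraries and lines and bars for the mean and SD of 3 libraries. HSPA5, HYOU1 and XBP1 are apart at 24 h and overlap at 48 h, whereas HERPUD1, CREB3L1, SEC24D and KDELR3 are also apart at 48 h. DNAJB11 is apart at 24 h and, by less, at 48 h, with means of 70.3 (untreated) and 74.4 TPM (TGFβ arm) at 48 h.

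Changes within each arm were compared between hours that share a code. From 0 to 8 h, 12 members were called in untreated cells, 3 higher and 9 lower, where 13.2% of all genes were called higher and 12.7% lower (25.9% in either direction). In the TGFβ arm 17 were called, 12 higher and 5 lower, where 17.5% of all genes were higher and 16.3% lower (33.8% in either direction). HSPA5 rose in the TGFβ arm (0.31 ± 0.05, adjusted p = 3.8e-05) and was at -0.16 ± 0.05 in untreated cells (adjusted p = 0.019). HERPUD1 rose by 0.30 ± 0.05 log2 units in the TGFβ arm and changed by -0.33 ± 0.05 in untreated cells. HYOU1, by contrast, changed by -0.32 ± 0.04 in untreated cells (adjusted p = 5.7e-06) and by -0.01 ± 0.04 in the TGFβ arm (adjusted p = 0.88). KDELR3, ERN1 and SYVN1 rose in both arms. The signed log2 change from 0 to 8 h was higher in the TGFβ arm, that is, more positive or less negative, for 9 members by the test of the difference itself, and lower for 0. These 9 were HSPA5, HYOU1, DNAJB11, HERPUD1, XBP1, CREB3L1, CREB3L2, SEC61A1 and SEC24D. For none was it lower at an unadjusted p under 0.05 in limma, or by edgeR or DESeq2. Of all genes, 7.88% were called, 5.05% with a higher and 2.84% with a lower signed change. The largest of these differences of change was that of CREB3L1, 1.03 ± 0.12 log2 units (adjusted p = 2.4e-06). With only the libraries of the groups compared, or with log2(TPM + 1), 5 members were called, and the TGFβ arm had 6 members called in its own change with only these libraries. Scaled to the 3 reference genes, 23 members were called higher and 0 lower in the TGFβ arm, where the median of all genes was 0.23.

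**Figure D4:**
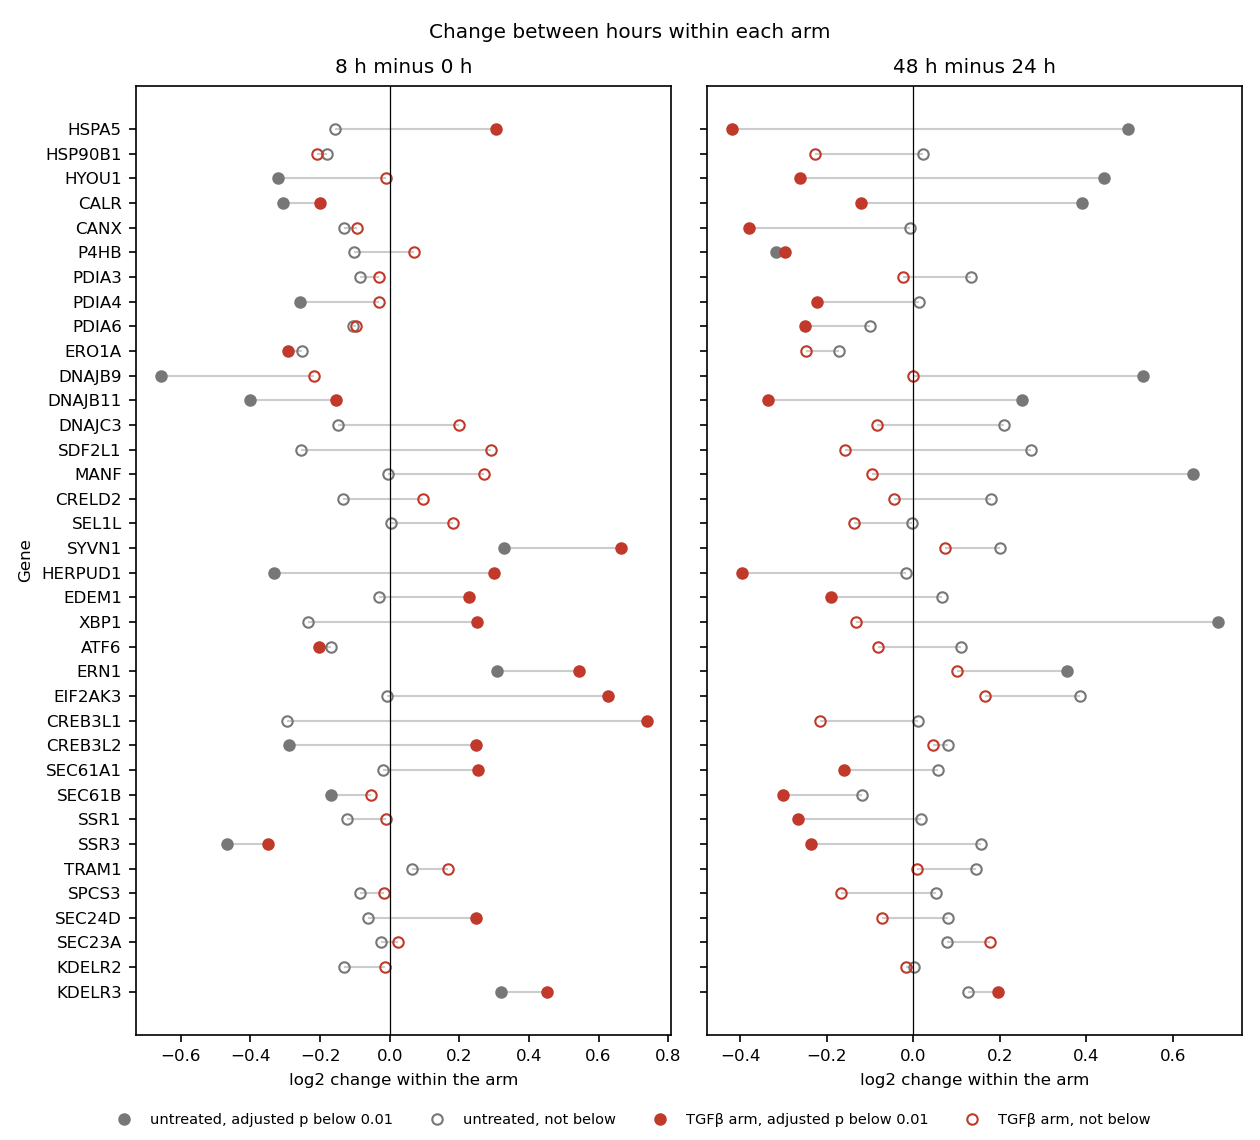
Log2 change within untreated cells (grey) and within the TGFβ arm (red) from 0 to 8 h (left) and from 24 to 48 h (right) for each of the 36 genes (rows), filled where the adjusted p was below 0.01. From 24 to 48 h the untreated points of HSPA5, HYOU1, CALR, DNAJB9, MANF and XBP1 lie to the right of 0 and the TGFβ points of HSPA5, HYOU1, CALR and CANX to the left.

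From 24 to 48 h, 9 members (25%) were called in untreated cells, 8 higher and 1 lower. Of all genes 28.4% were called there, 14.7% higher and 13.6% lower. In the TGFβ arm 15 members (41.7%) were called, 1 higher and 14 lower. Of all genes 25.8% were called there, 12.4% higher and 13.4% lower. HSPA5 rose by 0.50 ± 0.05 log2 units in untreated cells (adjusted p = 1.1e-07) and changed by -0.42 ± 0.05 in the TGFβ arm (adjusted p = 1.0e-06). XBP1 rose by 0.70 ± 0.07 in untreated cells and was at -0.13 ± 0.07 in the TGFβ arm (adjusted p = 0.14). For HERPUD1 the values were -0.02 ± 0.05 in untreated cells (adjusted p = 0.84) and -0.40 ± 0.05 in the TGFβ arm (adjusted p = 4.5e-06). Another scaling turned the direction in the TGFβ arm. With library size set by the 3 reference genes, 34 members were called higher in untreated cells, and 23 were called higher and 0 lower in the TGFβ arm. Under that scaling the median change of all genes was 0.34 in untreated cells and 0.43 in the TGFβ arm.

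The difference of these changes between the arms, in which the median of all genes was 0.09 under the same scaling, passed the test for 11 members with a lower signed change in the TGFβ arm and 0 with a higher one, where 9.11% of all genes passed, 5.61% with a lower and 3.5% with a higher signed change. The 11 were HSPA5, HYOU1, CALR and CANX among the chaperones, DNAJB9, DNAJB11 and MANF among the cofactors, HERPUD1, XBP1, SEC61A1 and SSR3. The values ran from -0.22 ± 0.05 for SEC61A1 to -0.92 ± 0.07 log2 units for HSPA5 (adjusted p = 2.3e-08). None of the 11 belonged to the vesicle transport genes, whose values ran from -0.15 for SEC24D to 0.10 for SEC23A, or to the genes for disulfide bonds. No member had a higher change at an unadjusted p under 0.05, and edgeR and DESeq2 called 0 higher. The count was 7 without any one of untreated replicate 1 at 24 h, untreated replicate 3 at 48 h, TGFβ replicate 3 at 24 h or TGFβ replicate 1 or 3 at 48 h, and 5 with the 3 reference genes.

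**Figure D5:**
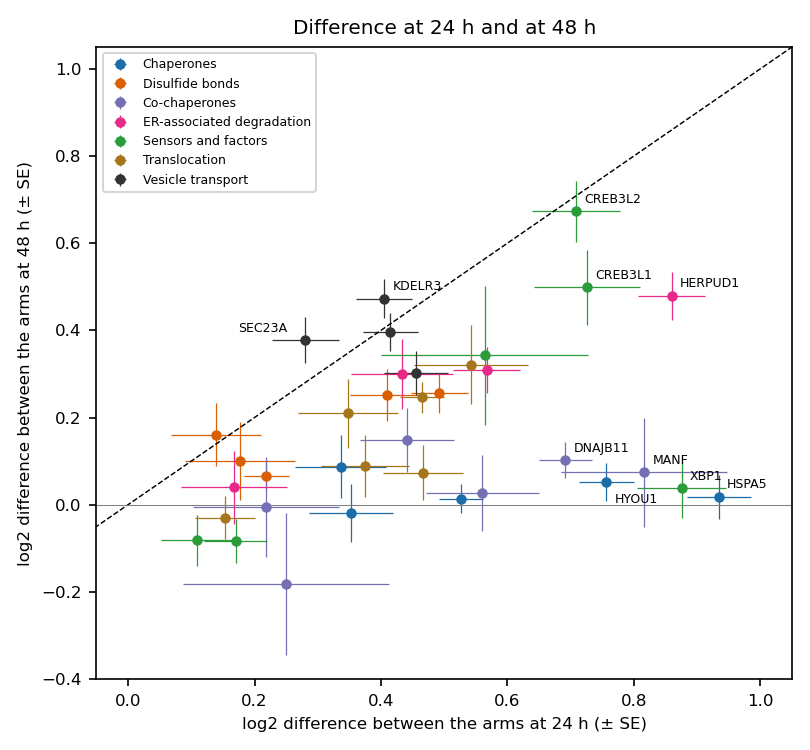
Log2 difference between the arms at 24 h (x axis) and at 48 h (y axis) for the 36 genes, coloured by role, with SE bars and a dashed line of equal values. HSPA5, XBP1, MANF, HYOU1 and DNAJB11 lie near 0 on the y axis, while CREB3L2, KDELR3 and SEC23A lie close to or above the line.

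Relative to each arm's own 0 h level, the median TPM ratios of the 36 genes over 8, 24 and 48 h were 0.931, 0.883 and 0.987 in untreated cells and 1.07, 1.10 and 1.04 in the TGFβ arm. At 24 h 10 members were above their 0 h mean in untreated cells and 29 in the TGFβ arm. The ratios to 0 h were not computed for all genes, so no background share stands beside them. In limma the median log2 change from 0 to 8 h was -0.13 in untreated cells and 0.08 in the TGFβ arm for the members. For all genes it was 0.004 and 0.012. The levels at 24 h come from libraries of another code than those at 0 h. HSPA5 had a mean of 279.5 ± 15.3 TPM at 0 h and 202 ± 8.86 TPM at 24 h in untreated cells, and 287 ± 23.3 and 379 ± 35.5 TPM in the TGFβ arm (SD, n = 3).

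A list of 113 other genes of the same pathways was all tested. Over 8, 24 and 48 h 62 of them were called, 50 with a higher and 12 with a lower average in the TGFβ arm. Of all genes 42.5% were called, 21% higher and 21.5% lower. By hour, 14 of the 113 genes were higher and 3 lower at 8 h, 37 and 4 at 24 h, and 31 and 11 at 48 h. Their median log2 differences were 0.09, 0.15 and 0.08. Of all genes 9.12%, 15.4% and 16.1% were higher at these hours and 7.26%, 13.8% and 16.4% lower. In either direction 37.2% of the list were called at 48 h, near the 32.6% of all genes. The split of the 113 genes over the 3 hours was 28 higher and 21 lower with library totals. There 8167 of all genes were called, 2570 of them higher, and the median of all genes was -0.11. The split was 103 higher and 0 lower with the 3 reference genes. There 11078 of all genes were called, 9608 of them higher, and the median of all genes was 0.23. Of 7 genes known as outputs of PERK, 5 were higher at 24 h and 3 at 48 h. A lower change from 24 to 48 h in the TGFβ arm was called for 5 of the 7, against 5.61% of all genes.

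DDIT3 levels in untreated cells were 38.3, 40.1, 40.5 (0 h), 32, 29.9, 34.1 (8 h), 29.6, 30.3, 27.4 (24 h) and 32.2, 29.3, 28.7 (48 h) TPM. DDIT3 levels in the TGFβ arm were 39, 40.01, 38.4 (0 h), 33.2, 30.4, 31.2 (8 h), 43.9, 58.9, 51.7 (24 h) and 29.8, 30.1, 32.5 (48 h) TPM. DDIT3, which encodes CHOP, a factor induced by PERK signalling, was 1.78-fold higher at 24 h (0.83 ± 0.08, adjusted p = 1.4e-08) and did not pass the test at 8 or 48 h, where the log2 differences were 0.04 ± 0.08 and 0.07 ± 0.08. TRIB3, a pseudokinase induced by CHOP and ATF4, had 1.49 ± 0.09 at 24 h and 0.53 ± 0.09 at 48 h. CHAC1, a glutathione-degrading enzyme of the same response, had 2.33 ± 0.68 at 48 h (adjusted p = 0.0082), at means of 2.29 ± 1.6 and 7.12 ± 1.6 TPM, with 30 to 975 estimated counts a library.

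Of 10 collagen folding genes, 1 was higher at 8 h, 4 at 24 h and 6 at 48 h, against 9.12%, 15.4% and 16.1% of all genes. A higher change from 24 to 48 h in the TGFβ arm was called for 4 of the 10, against 3.5% of all genes. SERPINH1, the collagen chaperone of the ER, had 0.26 ± 0.08 at 24 h and 0.82 ± 0.08 at 48 h (adjusted p = 6.1e-08), and its change from 24 to 48 h was higher in the TGFβ arm by 0.56 ± 0.12 log2 units (adjusted p = 0.0026). P4HA2, a catalytic subunit of collagen prolyl 4-hydroxylase, had 0.51 ± 0.03 at 8 h, 0.79 ± 0.04 at 24 h and 0.62 ± 0.04 at 48 h. DERL3, of the degradation channel, had 0.86 ± 0.13 at 24 h in the fit of counts, with a ratio of mean TPM of 1.44. OSTC, of the oligosaccharyltransferase, had 0.53 ± 0.07 at 24 h. SPCS2, of the signal peptidase, had 0.38 ± 0.06 at that hour. TMED10, a cargo receptor, had 0.37 ± 0.06 at 24 h in the fit of counts, but its TPM overlapped between the arms at that hour, with means of 287 and 307 TPM and a ratio of 1.07. SEC31A, of the outer COPII coat, had 0.40 ± 0.04 at 48 h, and of the 12 COPII genes on the list, SEC31A included, 2 were higher and 2 lower at that hour. Among all genes 16.1% were higher and 16.4% lower at 48 h. CREB3L4, a further member of the CREB3 family, was lower at 8 and 24 h, with -0.34 ± 0.05 and -0.32 ± 0.04.

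Promoters from 250 bases before to 50 bases after the start were available from RefSeq (GRCh38.p14) for 32 members, all but KDELR2, PDIA3, SEC24D and TRAM1, and were searched on both strands. The ER stress response element, searched as CCAAT, any 9 bases and CCACG, was found in 7 members (CALR, CANX, CRELD2, HSP90B1, HSPA5, PDIA6 and XBP1) and in 25 of 27305 genes (0.0916%). Its second form, searched as ATTGG, any 1 base and CCACG, was found in HERPUD1, HYOU1 and SDF2L1 and in 19 genes (0.0696%). The core of the unfolded protein response element, TGACGTGG, was found in HYOU1, KDELR3, SEC23A and SSR3 and in 253 genes (0.927%). The matches of the first element in the 3 genes with the largest 24 h differences that hold it, and of the second element in HERPUD1, are shown with the fixed letters in capitals.
HSPA5: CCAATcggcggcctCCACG
XBP1: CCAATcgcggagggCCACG
CALR: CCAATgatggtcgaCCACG
HERPUD1: ATTGGgCCACG

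In CALR the match lies on the other strand and is written as its reverse complement. In HYOU1 the TGACGTGG match overlaps the upstream match of the second element by 5 bases, as both lie in 1 run of capitals in the promoter shown above. The 10 members with either form of the stress element had a median log2 difference of 0.24 at 8 h, 0.44 at 24 h and 0.03 at 48 h, and the 22 searched members without either had 0.24, 0.45 and 0.15. At 48 h 1 of the 10 and 9 of the 22 were called, and the change from 24 to 48 h was lower in the TGFβ arm for 6 of the 10 and 5 of the 22. Among all genes 32.6% were called at 48 h, 16.1% of them higher in share, and 5.61% had a lower change from 24 to 48 h. The difference between the 10 and the 22 members was not tested, and a match in letters is a description of the sequence only.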

How the data were processed

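RNA-Seq libraries of SK-MES-1 cells (12 untreated, 12 of the TGFβ arm) had been quantified by the authors with kallisto 0.43.0 against Ensembl release 79 transcripts of GRCh38, as the study's methods and the submitters' processing notes give it. Each deposited table lists 173259 transcripts. Estimated counts, as deposited, are the reads that kallisto assigned to a transcript, without normalization. The authors' TPM divide these by effective length and scale each library to one total. Effective lengths, also deposited, served for length-scaled counts in 1 alternative only. Replicates had not been pooled.

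Counts and TPM were summed per gene with GENCODE release 44, by transcript identifier with the version dropped, and 17741 transcripts found no gene and were left out. Sums were rounded, and a gene was tested if 3 libraries or more held 10 counts or more. limma 3.58.1 in R 4.3.3 was used (voom, TMM factors, 1 mean per group, all 24 libraries), as the study's methods use limma, with Benjamini-Hochberg adjustment over all genes and a threshold of 0.01. The test over 8, 24 and 48 h was a moderated F-test. Differences of change between the arms were contrasts of the same fit. Errors of log2 values are SE from that fit. The share of spliced XBP1 was tested by an exact two-sided permutation test within hours, whose smallest p is 0.00025. Alternatives were edgeR 4.0.16, DESeq2 1.42.0, log2(TPM + 1) and log2(TPM + 0.1), other scalings and filters, fits on the compared libraries alone, an adjusted p of 0.05, a replicate block and each library left out in turn. The fits were tested on simulated data first. Python 3.11.15 was used for tables and, with matplotlib 3.10.9, for plots.

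The 36 genes, their role groups, the 113 other pathway genes and the marker genes were chosen with earlier results of these data known. In each role group the up to 3 members with the largest average difference over 8, 24 and 48 h are given with the value of every library, along with HSPA5, XBP1 and DDIT3. Other pathway genes are named where the F-test passed with a log2 difference of at least 1 at any of these hours, or where a gene had the largest average difference of its list. Nothing but the labels' term biological triplicates says how replicates were separated, so p-values measure the spread between these libraries. Every replicate pair differed by more than sampling noise. Some genes are not reported here.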

Additional observations from a re-analysis of the deposited data

Results flagged for a closer look

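For 9 members the change from 0 to 8 h differed between the arms by the test of that difference (limma, adjusted p below 0.01). The signed log2 change in the TGFβ arm was above the untreated one by 1.03 for CREB3L1, by 0.63 for HERPUD1, by 0.54 for CREB3L2, by 0.49 for XBP1 and by 0.46 for HSPA5. It was also above it by 0.31 for HYOU1, by 0.31 for SEC24D, by 0.27 for SEC61A1 and by 0.25 for DNAJB11.

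For 11 members the change from 24 to 48 h differed between the arms by the same test. The TGFβ change minus the untreated change was -0.92 for HSPA5, -0.84 for XBP1, -0.74 for MANF, -0.70 for HYOU1 and -0.59 for DNAJB11. The values were -0.53 for DNAJB9, -0.51 for CALR, -0.39 for SSR3, -0.38 for HERPUD1, -0.37 for CANX and -0.22 for SEC61A1. HSPA5, HYOU1, XBP1, DNAJB11, HERPUD1 and SEC61A1 passed both tests, with a higher signed log2 change in the TGFβ arm from 0 to 8 h and a lower one from 24 to 48 h.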

How the results depend on the processing

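Of the 36 members, 26 to 32 were called over 8, 24 and 48 h when any 1 of the 24 libraries was left out, 15 to 21 at 8 h, 26 to 29 at 24 h and 10 to 13 at 48 h. For the change from 24 to 48 h between the arms the count ran from 7 to 14, and for the change from 0 to 8 h from 7 to 12. With the 3 reference genes as library size, chosen after seeing the data, 35 members were called at 48 h, 5 for the change from 24 to 48 h between the arms, 34 for untreated cells and 23 for the TGFβ arm from 24 to 48 h, and 103 of the other pathway genes. That scaling moved the median log2 difference of all genes to 0.23 over the 3 hours, and library totals moved it to -0.11. Under it the 48 h difference was higher, not lower, for CANX (0.35), CRELD2 (0.36), ATF6 (0.29), ERN1 (0.28) and SEC61B (0.34). These 5 had not passed the test, at -0.083 to -0.006, and the median of all genes moved to 0.355 at that hour. With only the compared libraries the counts were 32 at 8 h, 5 for the change from 0 to 8 h between the arms, 6 for the TGFβ arm from 0 to 8 h and 7 for it from 24 to 48 h. With log2(TPM + 1) and with log2(TPM + 0.1) alike, 5 members were called for the change from 0 to 8 h between the arms and 10 for the TGFβ arm over these hours. With an adjusted p below 0.05 the counts were 14 for that change between the arms and 19 for untreated cells from 0 to 8 h. The causes were not tested. The mean difference in spliced XBP1 ranged from -1.93 to -0.0608 percentage points with 1 library left out. Over all gene values and settings, 3883 kept direction and side of the threshold, 138 no longer passed, 78 newly passed and 5 reversed.

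Nothing in the labels ties same-numbered libraries of the arms together. Their deviations from the group means correlated at 0.072 to 0.301 at 0 and 24 h, where pairs of different numbers ran from -0.248 to 0.123, and at -0.047 to 0.092 at 8 and 48 h. The numbers were therefore not taken to pair the arms at every hour. With a replicate block 32 members were called over the 3 hours, 20 at 8 h, 29 at 24 h, 13 at 48 h, 13 for the change from 0 to 8 h and 13 for that from 24 to 48 h between the arms.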
